A study of Homo sapiens with 16 samples.

Results

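The very wide acetylated regions of these cells are stretches of at least 10 kb in which peaks of H3K27ac ChIP-seq ran together. H3K27ac, the acetylation of lysine 27 of histone H3, marks active promoters and enhancers, and it was mapped in MDA-MB-231 and Hs578T cells, established human cell lines of triple-negative breast cancer (TNBC). Peaks of all 16 samples were merged wherever they shared 1 bp, which gave 64545 regions, of which 55219 held peaks from 2 lists or more. Of these consensus regions, 770 (1.39%) were 10 kb or wider. The members were thus chosen on their width over the union of all lists, with no use of the sample labels, and their widths are given as a description only.

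The study took each line both as CRISPR controls and with its receptor Fn14, encoded by TNFRSF12A, knocked out (Fn14 KO). Cells of every group were starved of serum in Opti-MEM for 8 h and then left untreated or given 10 ng/ml of the Fn14 ligand TWEAK over 48 h, with a fresh dose after 24 h. This gave 8 groups of 2 lists each. Per the study's methods, the Fn14 KO cells were made with the CRISPR vector TLCV2 and 2 different guides. They were identified by western blot and verified by Sanger sequencing. The study also blotted Fn14 in these cells and reported that TWEAK no longer activated JNK and non-canonical NF-kB signalling in them. Acetylation lists cannot show whether Fn14 protein was gone. The study's methods give at least 2 biological replicates for ChIP-seq of cell lines. The labels do not say whether the lists of a group came from separate cultures, so p-values measure only the spread between these samples.

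Most of the genome's H3K27ac peaks are narrow, but in regions where several enhancers lie side by side, or where acetylation spreads from a promoter into the gene, peaks merge into wide domains. Such domains, of which super-enhancers are the best known kind, tend to lie at genes with high output and at genes that set a cell's identity. TWEAK is a cytokine of the tumour necrosis factor family. On binding Fn14, it draws the adaptors of the TRAF family and the cellular inhibitors of apoptosis (the products of BIRC2 and BIRC3) to the receptor, which frees the kinase NIK (MAP3K14) and sends NF-kB dimers to the nucleus. The comparison of untreated with TWEAK-treated control and Fn14 KO cells addresses which wide regions widen or shrink when this receptor is engaged, and whether the same regions move without it.

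The stretches below lie in wide regions that widened or shrank with TWEAK in control cells of both lines. Each is 160 bp, hg38, plus strand, outside exons, and comes from the longest stretch of its region that was covered in all 4 TWEAK-treated and no untreated control list (for TRAF1 and HIPK2) or in all 4 untreated and no TWEAK-treated one (for BMP4 and SPRY1). Capitals mark a match to the NF-kB consensus. Where such a match existed the window was placed on it, so its presence is a description and not a finding, and a match does not show that a factor binds.

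TRAF1, intron, chr9:120919328-120919487: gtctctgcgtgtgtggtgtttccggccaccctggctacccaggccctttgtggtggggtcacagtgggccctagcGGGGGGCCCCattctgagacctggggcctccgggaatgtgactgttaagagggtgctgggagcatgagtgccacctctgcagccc
HIPK2, intron, chr7:139649350-139649509: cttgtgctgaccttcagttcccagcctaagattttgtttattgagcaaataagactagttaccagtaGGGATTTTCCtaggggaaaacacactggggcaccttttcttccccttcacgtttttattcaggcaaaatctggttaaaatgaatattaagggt
BMP4, between genes and 1770 bp from BMP4, chr14:53947806-53947965: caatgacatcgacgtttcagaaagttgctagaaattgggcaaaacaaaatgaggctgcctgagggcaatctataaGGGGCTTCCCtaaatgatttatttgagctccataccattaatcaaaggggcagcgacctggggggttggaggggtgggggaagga
SPRY1, between genes and 1312 bp from SPRY1, chr4:123405073-123405232: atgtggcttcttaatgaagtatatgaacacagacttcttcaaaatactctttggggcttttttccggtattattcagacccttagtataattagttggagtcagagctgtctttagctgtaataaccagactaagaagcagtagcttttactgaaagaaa

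The 770 wide regions had a median width of 13.0 kb, reached 92.0 kb and made up 12.2 Mb. Of them, 513 were under 15 kb, 135 were 15 to 20 kb, 81 were 20 to 30 kb, 31 were 30 to 50 kb and 10 were 50 kb or more. Just inside the limit stood regions at F2RL3 (10005 bp) and CTNNA1 (10009 bp), and just outside it regions at DNMBP (9996 bp) and TRERF1 (9991 bp). A peak was present in all 16 lists in 760 regions (98.7%). In 635 regions (82.5%) at least 1 list held a single peak of 10 kb or more, in 99 all 16 lists did, and in the other 135 (17.5%) the width came only from overlapping peaks of different lists.

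Wide regions lay at gene starts more often than narrow ones. The start site of a protein-coding gene fell in 395 of them (51.3%), 234 (30.4%) lay within a gene body without a start and 141 (18.3%) lay between genes. Among the 54449 narrower consensus regions these shares were 21.1%, 42.5% and 36.3%, and among the 27577 narrower regions with a peak in all 16 lists they were 36.0%, 33.7% and 30.3%. A wider region has more room for a start site, so the shares are given as a description. At least 2 gene starts lay in 93 wide regions (12.1%), at most 5 in 1, and together the wide regions held starts of 515 of the 20020 protein-coding genes of the annotation.

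The 10 widest regions are given in the order of their union width. The widest, 92.0 kb on chr9:95001920-95093880, lay at AOPEP, an aminopeptidase gene, and the next, 90.4 kb on chr19:38646083-38736433, at ACTN4, which encodes the actin cross-linker alpha-actinin 4. The others lay at HMGA2 (83.7 kb), a chromatin protein of embryonic tissue, MYH9 (80.3 kb), a non-muscle myosin heavy chain, MYOF (64.7 kb), a membrane repair protein, BCL2L1 (64.1 kb), an inhibitor of apoptosis, ANXA2 (61.3 kb), a membrane-binding annexin, the locus of the long non-coding RNA LINC-PINT (57.6 kb), CAPN2 (52.0 kb), a calpain protease, and the locus of MIR100HG (50.1 kb), which carries microRNAs.

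How much of each wide region was acetylated in a list was measured as the percent of its base pairs that lay under peaks, here called covered percent, and differences in it are given in percentage points. The median covered percent over the 770 regions ran from 63.3 to 87.8 across lists. Replicates were uneven in MDA-MB-231, with medians of 69.6 and 81.1 in the untreated control pair and 75.8 and 63.3 in the untreated Fn14 KO pair, while the TWEAK pairs had 73.2 and 75.8 (control) and 68.3 and 67.6 (Fn14 KO). Hs578T pairs had 82.3 and 82.1 (control untreated), 75.6 and 81.3 (control TWEAK), 87.6 and 85.4 (Fn14 KO untreated) and 87.8 and 85.7 (Fn14 KO TWEAK). All 8 Hs578T lists except control TWEAK replicate 1 thus stood above every MDA-MB-231 list.

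**Figure D1:**
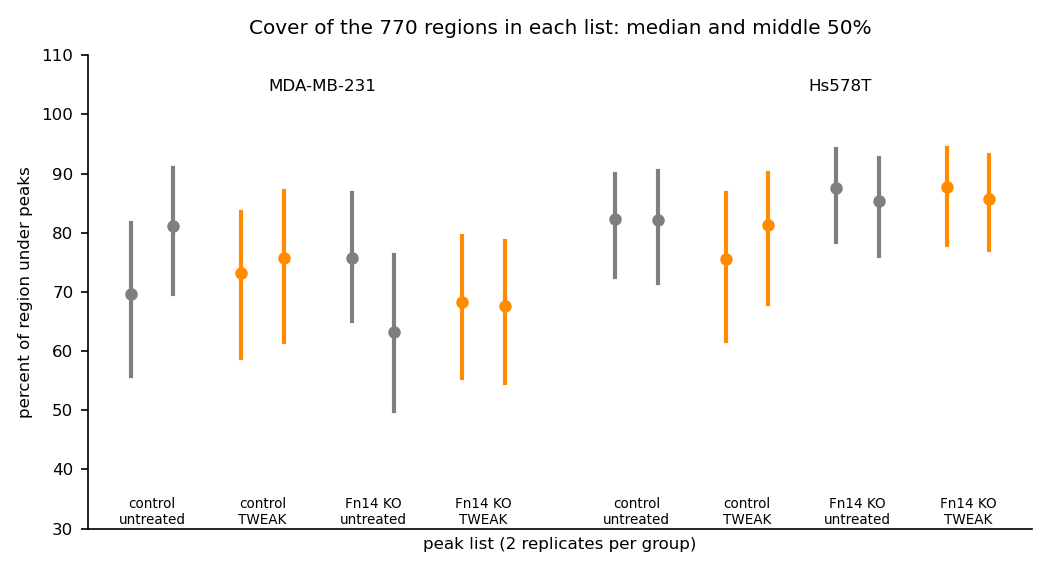
Covered percent of the 770 wide regions in each of the 16 lists, with the percent of the region's base pairs under peaks on the y axis, which starts at 30, and the lists by line, genotype and treatment on the x axis. Points are medians, vertical lines span the middle 50% of regions, grey is untreated and orange is TWEAK. Medians ran from 63.3 (MDA-MB-231 Fn14 KO untreated replicate 2) to 87.8 (Hs578T Fn14 KO TWEAK replicate 1).

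The 16 lists held 39544 to 47197 peaks covering 64.1 to 88.5 Mb, and 11.2% to 12.0% of that length lay in the wide regions. The sequencing depth is unknown, since peak lists hold no reads. MDA-MB-231 control cells had 8.96 ± 0.969 Mb of the wide regions covered when untreated and 8.69 ± 0.170 Mb with TWEAK, and Hs578T control cells 9.77 ± 0.0212 and 9.17 ± 0.481 Mb (SD, n = 2 for each group). In Fn14 KO cells it was 8.32 ± 1.09 and 8.10 ± 0.0566 Mb in MDA-MB-231 and 10.3 ± 0.141 and 10.3 ± 0.141 Mb in Hs578T. The median highest fold enrichment of a wide region, as given by the authors' peak caller, was 11.3 to 13.8 in the MDA-MB-231 Fn14 KO lists, below the 16.2 to 18.2 of the MDA-MB-231 control lists, and 14.9 to 16.5 in Hs578T. Its part in the comparisons between genotypes was not tested.

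A change in covered percent with TWEAK was called for 182 wide regions in control cells and for none in Fn14 KO cells. Regions at TRAF1, BIRC3, BIRC2, NFKBIZ and BCL3, all of the NF-kB pathway, widened, as did regions at NAMPT, HMGA2, HIPK2, VEGFC and ETS1. Regions at BMP4, SPRY1, ETV4, CCND1, PLAU and ACTN4 shrank. By limma across all 55219 consensus regions with Benjamini-Hochberg adjustment at 0.05, taking both lines together, 61 wide regions (7.92%) were wider after TWEAK in control cells and 121 (15.7%) narrower, where 10.6% of all consensus regions were called wider and 10.6% narrower. The median change was -3.19 points over the wide regions and -2.53 points over all regions.

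The split of these calls depended on how lists were levelled and on which lists set the width. After each list was shifted to a common mean over the regions with a peak in all 16 lists, 114 wide regions (14.8%) were wider and 131 (17.0%) narrower, where 13.1% and 9.94% of all consensus regions were. Of the 61 that widened, 15 (24.6%) reached 10 kb when only the untreated control lists were merged and 50 (82.0%) when only the TWEAK-treated control lists were. For the 121 that narrowed the figures were 91 (75.2%) and 20 (16.5%). Of the 61, 35 reached 10 kb neither from the untreated control lists nor from the Fn14 KO lists, and of the 121, 19 neither from the TWEAK-treated control lists nor from the Fn14 KO lists. Such regions were chosen through the lists in which they were high, so the choice favours their separation and their tests, and the counts of called regions are descriptions. With regions merged from the Fn14 KO lists alone, so that the control lists played no part in the choice, 612 regions were 10 kb or wider, and 14 of them (2.29%) were called wider and 84 (13.7%) narrower in the control lists, beside 4.78% and 10.3% of all regions built that way. That fit held only the 8 control lists.

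Within single lines, 40 wide regions were wider and 49 narrower in MDA-MB-231 control cells (backgrounds 6.45% and 4.32%), and 27 wider and 68 narrower in Hs578T control cells (6.39% and 5.77%). The split rested on single lists. In MDA-MB-231 it was 14 wider and 56 narrower without control untreated replicate 1, 47 and 14 without control untreated replicate 2, and 24 and 13 without control TWEAK replicate 1, and in Hs578T 16 and 13 without control TWEAK replicate 1. Without 1 list, TWEAK replicate 2, the share of the wide regions called in MDA-MB-231 control cells in either direction fell from 11.6% to 2.76%, and without Hs578T control TWEAK replicate 1 that in Hs578T went from 12.3% to 3.84%. With regions built from the lists of the other line, 13 of 692 (1.88%) were wider and 16 (2.31%) narrower in MDA-MB-231 control cells, beside 4.17% and 2.56% of all such regions, and 17 of 488 (3.48%) were wider and 50 (10.2%) narrower in Hs578T control cells, beside 5.17% and 6.80%. Each of these fits held only the 8 lists of the line tested.

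In Fn14 KO cells no wide region was called in either direction, against 0% of all consensus regions wider and 0.00181% narrower. By limma 3 wide regions (0.390%) had an unadjusted p under 0.05, beside 4.93% of all consensus regions, and the smallest adjusted p was 1.00. Taken by line, the count was also 0 in each direction in MDA-MB-231 Fn14 KO cells (backgrounds 0.00724% and 0.0163%, 14 regions with an unadjusted p under 0.05, smallest adjusted p 0.837) and in Hs578T Fn14 KO cells (0.112% and 0.0978%, 11 regions, 0.490). With 605 regions of 10 kb or more built from the control lists alone, the count in Fn14 KO cells was again 0, in a fit of the 8 Fn14 KO lists.

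The difference itself was tested with an interaction term, the TWEAK effect in control cells minus that in Fn14 KO cells. It was called in 34 wide regions (4.42%) in the direction of a larger widening in control cells and in 49 (6.36%) in the direction of a larger narrowing, against 5.93% and 3.65% of all regions. After the levelling of lists the counts were 65 and 58 (8.44% and 7.53%), beside 7.36% and 4.09% of all regions. The split depended on single lists, with 22 and 75 without MDA-MB-231 Fn14 KO untreated replicate 1, 41 and 34 without its replicate 2, 40 and 34 without MDA-MB-231 control untreated replicate 2 and 24 and 24 without Hs578T control TWEAK replicate 1. Over all 16 such refits it ran from 18 to 41 and from 24 to 75. Of the 61 regions that widened in control cells, 33 were called for this difference, and of the 121 that narrowed, 49 were. Taken by line, it was called in 17 wide regions (2.21%) and 6 (0.779%) in MDA-MB-231, against 3.47% and 0.967% of all regions. In Hs578T the counts were 7 (0.909%) and 20 (2.60%), against 3.27% and 1.94%. In either direction together, 2.99% and 3.51% of wide regions were called in these lines, against 4.44% and 5.22% of all.

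Over the 61 widened regions the median change was +24.9 points in control cells, from 9.34 to 84.9, and -0.181 in Fn14 KO cells, from -8.82 to 6.96. In 59 of the 61 both TWEAK lists stood above both untreated lists in each line. Over the 121 narrowed regions the median was -20.3 points in control cells, from -44.7 to -9.88, and -0.933 in Fn14 KO cells, from -16.4 to 10.1, and in 113 both TWEAK lists stood below both untreated lists in each line. A separation of 2 lists from 2 was common without a call. Counting all wide regions, both TWEAK lists stood above both untreated lists in 20.1% in MDA-MB-231 control cells and below in 32.2%, where 20.6% and 23.9% of all regions did. In Hs578T control cells these shares were 18.1% and 40.5%, where they were 19.4% and 28.3% of all regions.

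**Figure D2:**
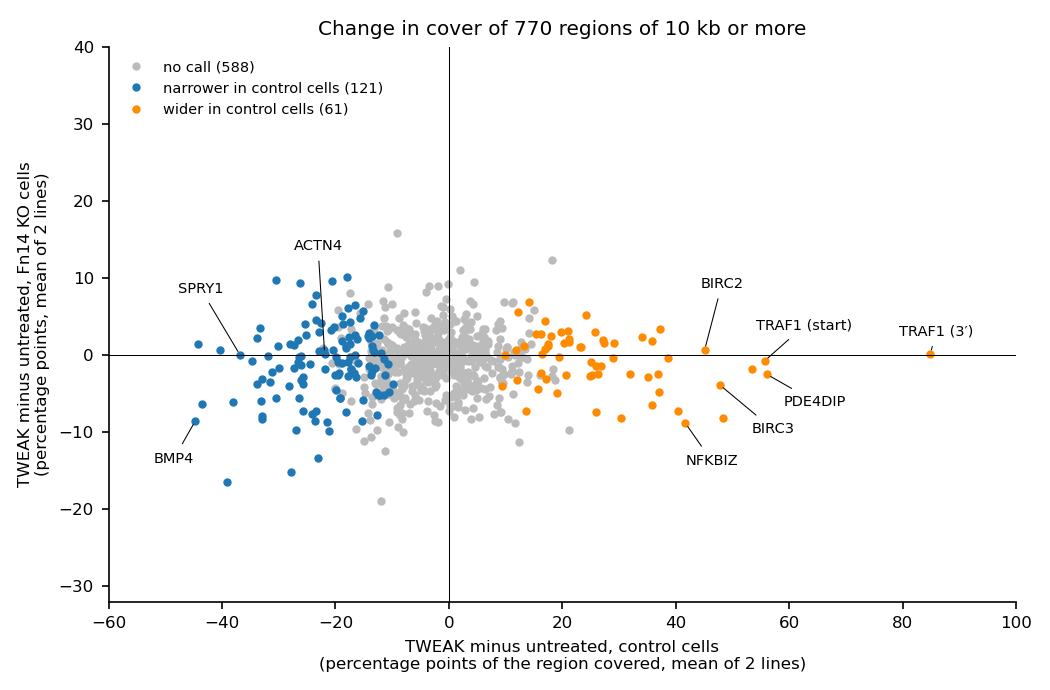
Change in covered percent with TWEAK, in percentage points, in control cells (x axis) and Fn14 KO cells (y axis), mean of both lines, for each of the 770 wide regions. Colours give the call in control cells, with 61 regions wider, 121 narrower and 588 not called, and the called regions spread from -44.7 to 84.9 points along x but only from -16.4 to 10.1 along y.

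The gene of TRAF1, an adaptor that binds TNF receptor family members and the cellular inhibitors of apoptosis and that NF-kB itself is known to induce, had the largest widening. It carried a pair of wide regions. The one over its 3′ part, 18.4 kb on chr9:120895187-120913545, had a covered percent of 1.86 and 3.03 in untreated and 77.5 and 90.2 in TWEAK-treated MDA-MB-231 control lists, and of 1.50 and 4.15 against 87.3 and 95.0 in Hs578T. The 8 Fn14 KO lists held 0 to 4.32. Acetylation was thus nearly absent in 12 lists and nearly complete in the 4 TWEAK-treated control lists, and the groups did not overlap. The change was 84.9 ± 3.30 points (SE, n = 8 control lists, limma adjusted p = 1.93e-07) and exceeded that in Fn14 KO cells by 84.7 ± 4.67 points (adjusted p = 1.10e-05). This region reached 10 kb only through the TWEAK-treated control lists, as the widest stretch built from untreated control lists was 761 bp and that from Fn14 KO lists 881 bp.

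At the start site of TRAF1 the second region, 19.0 kb on chr9:120914138-120933175, was partly acetylated in every list. Control lists of MDA-MB-231 covered 42.9 and 43.7% of it untreated and 100 and 97.7% with TWEAK, and those of Hs578T 43.5 and 42.7% and then 99.9 and 97.8%. In Fn14 KO cells the 8 lists ran from 37.8 to 48.5%. TWEAK-treated control lists stood apart from all the others, with a change of 55.7 ± 2.67 points (limma adjusted p = 2.71e-07) against -0.730 in Fn14 KO cells (difference 56.4 ± 3.78, adjusted p = 1.43e-05). The longest stretch that was under peaks in all 4 TWEAK-treated and in none of the untreated control lists was found here, 9533 bp on chr9:120914477-120924009, and the TRAF1 sequence above lies in it. From untreated control or Fn14 KO lists alone it was at most 8438 and 8580 bp wide. Peak height rose as well. On the log2 scale, the highest fold enrichment in the region was 0.38 higher (limma adjusted p = 2.87e-04).

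BIRC3 and BIRC2, neighbours on chromosome 11, encode the ubiquitin ligases that hold NIK low until the receptor is engaged. Of the 13.0 kb at the start of BIRC3 (chr11:102312139-102325155), untreated control lists covered 37.2 and 53.0% in MDA-MB-231 and 38.0 and 44.2% in Hs578T, and TWEAK lists 93.5 and 96.3% and 75.1 and 98.5%. Fn14 KO lists held 32.1 to 47.4%. All 4 TWEAK-treated control lists lay above the other 12, with a change of 47.8 ± 5.16 points (limma adjusted p = 5.48e-05, difference from Fn14 KO 51.6 ± 7.29, adjusted p = 9.98e-04). The region at BIRC2, 13.3 kb on chr11:102336369-102349707, which also takes in the 3′ end of BIRC3, went from 33.5 and 36.2% to 78.9 and 100% in MDA-MB-231 and from 33.6 and 34.5% to 62.0 and 77.1% in Hs578T. It stayed at 31.1 to 42.6% in Fn14 KO lists. The change was 45.1 ± 4.67 points (adjusted p = 4.00e-05) and the difference from Fn14 KO 44.4 ± 6.60 points (adjusted p = 0.00140). Without MDA-MB-231 control TWEAK replicate 2 the adjusted p of that difference was 0.121. Both regions reached 10 kb through the TWEAK-treated control lists only. The widest stretch from untreated control lists was 3902 bp at BIRC3 and 4843 bp at BIRC2, and from Fn14 KO lists 4109 and 5963 bp, so their separation and tests are favoured by the choice of members.

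Downstream of the receptor, the wide regions at MAP3K14, IKBKB and IKBKG were not called. MAP3K14 changed by -8.10 points in control cells (limma adjusted p = 0.229), IKBKB by -4.25 (0.441) and IKBKG by -3.55 (0.552), the latter 2 being a catalytic and the regulatory subunit of the IkB kinase complex. Inhibitors and modulators of NF-kB differed among themselves. NFKBIE, an inhibitor that lies in a region at HSP90AB1, changed by 6.80 points (adjusted p = 0.642) and TNIP1, which restrains NF-kB with A20, by 9.50 points (0.114), while the height of the TNIP1 region rose by 0.67 on the log2 scale (adjusted p = 1.09e-07).

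NFKBIZ, a nuclear IkB protein that modifies transcription by NF-kB, lay in 16.8 kb on chr3:101847565-101864353. Its control lists held 26.0 and 58.6% untreated and 83.6 and 91.6% with TWEAK in MDA-MB-231, and 36.4 and 49.3% and then 85.7 and 76.3% in Hs578T. The Fn14 KO lists were spread wide, from 36.0 to 89.0%, and overlapped the TWEAK-treated control lists. The change in control cells was 41.7 ± 9.09 points (limma adjusted p = 0.00660), and the difference from Fn14 KO was 50.5 ± 12.9 points (adjusted p = 0.0298), which passed the threshold in only 6 of 16 refits that left out a list (highest adjusted p 0.0748, without MDA-MB-231 control TWEAK replicate 2). That difference passed under 4 of 7 other settings of the processing. BCL3, another nuclear IkB protein and a partner of NF-kB dimers, rose from 57.7 and 81.1% to 93.8 and 94.7% in MDA-MB-231 and from 59.7 and 55.5% to 73.7 and 85.0% in Hs578T. In the Fn14 KO lists its 11.8 kb were covered to between 49.8 and 77.7%, which overlaps the TWEAK-treated control lists. This change of 23.3 ± 5.49 points passed (adjusted p = 0.0101), its difference from Fn14 KO did not (22.2 ± 7.76, adjusted p = 0.101), and the height of the region fell by 0.32 on the log2 scale (adjusted p = 0.00223).

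In all, of 25 genes listed for the TWEAK, Fn14 and NF-kB pathway, 10 lay at least in part in a wide region, and 8 (32.0%) had their start site there, where 515 of all 20020 protein-coding genes did. Of the 11 regions concerned, 6 widened and none narrowed in control cells, with medians of 23.3 points in control and -1.94 points in Fn14 KO cells, beside medians of -3.19 and -0.630 over all wide regions. Of the 6, both TRAF1 regions, BIRC3, BIRC2 and BCL3 were 10 kb wide in the TWEAK-treated control lists and not in the untreated control or Fn14 KO lists. They had to widen to be counted, so the count and the median lend no support to a change of the pathway. TRAF1 and BIRC3 with BIRC2 supply 4 of those 6 regions from neighbouring DNA, so they are not independent of one another.

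**Figure D3:**
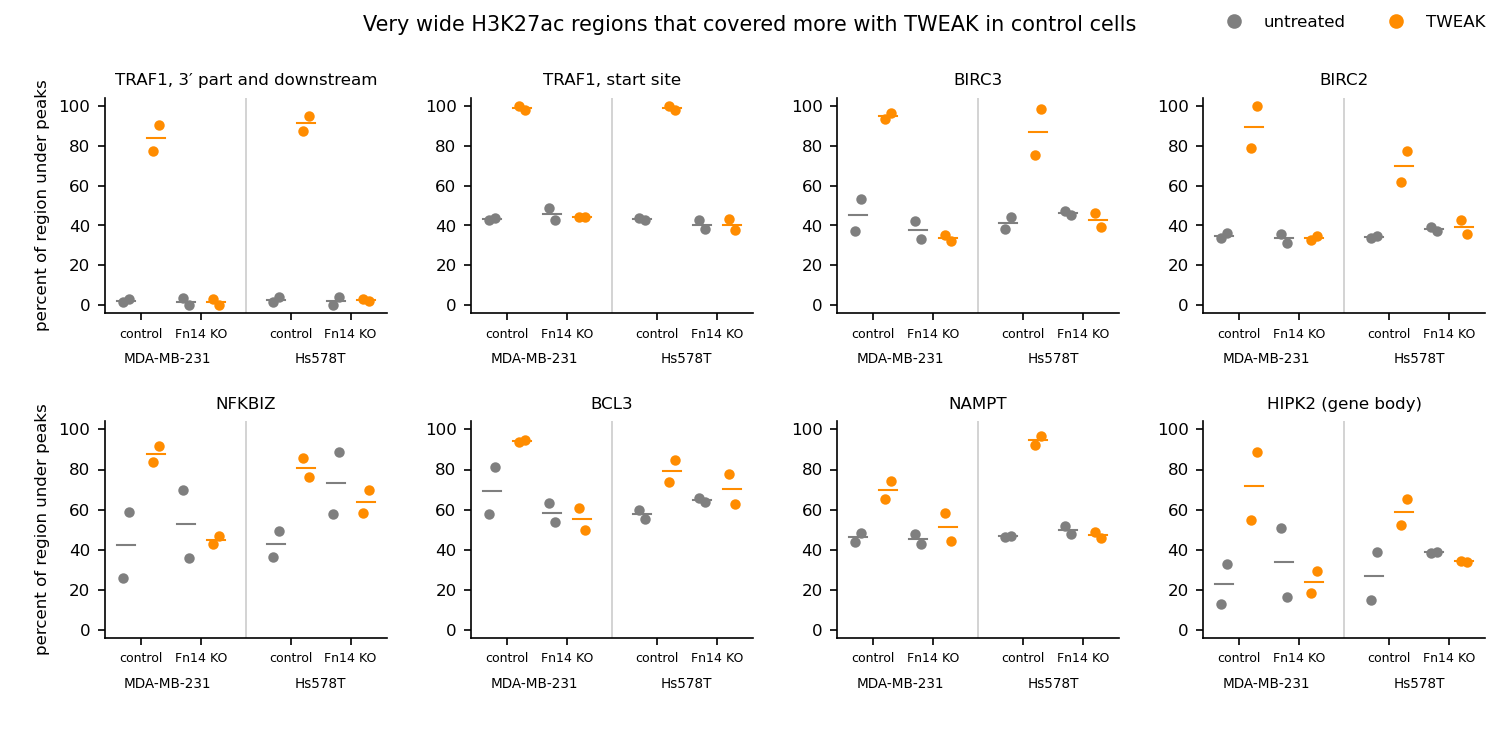
Covered percent in each list for 8 wide regions that widened with TWEAK in control cells (TRAF1 3′ part, TRAF1 start site, BIRC3, BIRC2, NFKBIZ, BCL3, NAMPT and HIPK2). The y axis is the percent of the region under peaks, points are single lists, horizontal lines are means of 2 lists, and the x axis gives line, genotype and treatment. At both TRAF1 regions the 4 TWEAK-treated control lists sit between 77.5 and 100, above the other 12 lists.

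NAMPT, HMGA2, HIPK2, VEGFC and ETS1 were also among the genes at regions that widened. NAMPT, the rate-limiting enzyme of NAD salvage, had a region of 10.3 kb on chr7:106277421-106287712 over its start. It was covered to 43.9 and 48.3% in untreated and 65.3 and 74.1% in TWEAK-treated MDA-MB-231 control lists, and to 46.1 and 47.0% against 92.4 and 96.7% in Hs578T. Fn14 KO lists held 43.0 to 58.5%. All 4 TWEAK-treated control lists were above the other 12, and the change was 35.8 ± 3.74 points (limma adjusted p = 3.99e-05) against 1.79 in Fn14 KO cells (difference 34.0 ± 5.29, adjusted p = 0.00180). The rise in Hs578T exceeded that in MDA-MB-231 by 24.4 points, which did not pass (adjusted p = 0.238). While the region widened, its height fell by 0.43 on the log2 scale (adjusted p = 4.57e-04). The widest stretch built from the TWEAK-treated control lists was 9951 bp and from the untreated ones 5137 bp. As NAMPT was covered furthest in the TWEAK-treated control lists, the choice of members may favour its separation and its tests.

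HMGA2 carried 3 wide regions over its start and gene body, and the 12.0 kb in its gene body (chr12:65919854-65931815) moved most. Control lists held 12.4 and 41.7% untreated and 95.8 and 82.8% with TWEAK in MDA-MB-231, and 48.3 and 42.8% and then 77.7 and 82.6% in Hs578T. Fn14 KO lists ran from 1.90 to 68.1% with both ends in untreated lists. The control groups did not overlap, with a change of 48.4 ± 11.5 points (limma adjusted p = 0.0107). The difference from Fn14 KO, 56.6 ± 16.3 points (adjusted p = 0.0496), passed in only 4 of 16 refits without a list (highest adjusted p 0.114, without Hs578T Fn14 KO untreated replicate 2). It passed under 4 of 7 other settings of the processing. This region was covered furthest in the TWEAK-treated control lists, so the choice of members may favour its separation and its tests. A further 20.9 kb in the gene body widened by 19.1 points (adjusted p = 0.0250), a call kept in 10 of 16 refits without a list. There the difference from Fn14 KO was not called. The 83.7 kb over the start site changed by 7.48 points (adjusted p = 0.547).

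HIPK2, a nuclear kinase that acts on p53 and on JNK signalling, had 10.0 kb of its gene body in a wide region (chr7:139645853-139655875). It went from 12.9 and 32.9% to 54.7 and 88.6% in MDA-MB-231 control lists and from 14.6 and 39.0% to 52.5 and 65.2% in Hs578T. Fn14 KO lists held 16.5 to 50.9%, below all 4 TWEAK-treated control lists. The change was 40.4 ± 9.12 points (limma adjusted p = 0.00795). Its difference from Fn14 KO, 47.7 ± 12.9 points (adjusted p = 0.0385), passed in 5 of 16 refits without a list, and was at an adjusted p of 0.0896 without MDA-MB-231 Fn14 KO TWEAK replicate 1. It passed under 5 of 7 other settings of the processing. The region only just passed 10 kb and was covered furthest in the TWEAK-treated control lists. The choice of members may thus favour its separation and its tests.

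VEGFC, a growth factor of lymphatic vessels, widened by 21.0 ± 3.59 points over its start (limma adjusted p = 0.00150), from 52.5 and 56.8% to 71.3 and 83.6% in MDA-MB-231 control lists and from 79.5 and 66.6% to 92.0 and 92.4% in Hs578T. ETS1, a transcription factor tied to invasion, widened by 25.7 ± 4.17 points (adjusted p = 0.00108), from 48.7 and 57.3% to 76.6 and 88.8% and from 72.7 and 58.8% to 83.8 and 90.9%. In both genes the control groups of each line did not overlap. The difference from Fn14 KO was called at an adjusted p of 0.0473 for VEGFC and of 0.0329 for ETS1 and was kept in 2 and 7 of 16 refits without a list, the highest adjusted p values, 0.109 and 0.0805, being those without MDA-MB-231 control TWEAK replicate 2. Of 7 other settings of the processing, only 1 kept the call at VEGFC and all 7 kept that at ETS1.

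Several of the strongest widenings had no clear gene. A region of 12.8 kb on chr4:176433596-176446442 lay between genes, 113630 bp from SPCS3, the nearest start. Its control lists held 37.3 and 43.6% untreated and 94.9 and 98.7% with TWEAK in MDA-MB-231, and 44.6 and 44.8% and then 96.7 and 93.7% in Hs578T, while Fn14 KO lists held 39.1 to 45.3%. The groups did not overlap (53.4 ± 2.97 points, limma adjusted p = 5.65e-07, difference from Fn14 KO 55.2 ± 4.20, adjusted p = 2.34e-05). It was 10 kb wide only through the TWEAK-treated control lists, with at most 3870 bp from untreated control and 3693 bp from Fn14 KO lists, which favours this separation.

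A region of 11.9 kb in PDE4DIP, a protein of the centrosome and Golgi, went from 40.1 and 40.6% to 98.1 and 93.7% in MDA-MB-231 and from 42.1 and 35.5% to 99.3 and 91.6% in Hs578T control lists, with 31.0 to 53.1% in Fn14 KO lists (56.1 ± 3.57 points, limma adjusted p = 1.31e-06, difference 58.6 ± 5.05, adjusted p = 4.81e-05). That region too, at most 3735 bp from untreated control and 4492 bp from Fn14 KO lists, passed 10 kb only through the TWEAK-treated control lists. The 22.7 kb on chr1:120523935-120546680, nearest to NBPF8, widened by 38.7 ± 4.96 points (adjusted p = 2.03e-04) and lies over a pseudogene copy of PDE4DIP. Of the 50-base words of the PDE4DIP region, 69.3% also occur in another wide region of chromosome 1, so reads of the copies could be split between them and the change cannot be placed at either with certainty. A neighbouring region of 10.9 kb (chr1:120549031-120559917) widened by 35.9 ± 7.04 points (adjusted p = 0.00359).

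Among the regions that shrank with TWEAK, BMP4, a secreted growth factor of the TGF-beta superfamily, had the largest loss, in 11.0 kb on chr14:53947408-53958390. Covered percent was 77.2 and 97.2 in untreated and 42.6 and 40.4 in TWEAK-treated MDA-MB-231 control lists, and 97.0 and 80.2 against 44.9 and 44.8 in Hs578T. Fn14 KO lists kept 69.1 to 96.1%. The 4 TWEAK-treated control lists lay below the other 12, and the change was -44.7 ± 5.48 points (limma adjusted p = 1.44e-04), with a difference from Fn14 KO of -36.2 ± 7.76 (adjusted p = 0.0127). The height of the region fell by 0.40 on the log2 scale (adjusted p = 0.00111). Built from the untreated control lists alone the region spanned 10983 bp, and from the TWEAK-treated ones 5120 bp at most.

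SPRY1, an inhibitor of the Ras and ERK pathway, lay in 25.0 kb on chr4:123395995-123421039. In control lists it fell from 80.6 and 92.2% to 51.5 and 52.1% in MDA-MB-231 and from 97.2 and 93.9% to 56.1 and 57.2% in Hs578T. The Fn14 KO cells of the lines differed, with 51.9 to 57.9% in MDA-MB-231, the level of the TWEAK-treated control lists, and 93.2 to 94.7% in Hs578T, that of the untreated ones. TWEAK moved them by 0.00200 points on average, against -36.8 ± 2.97 in control cells (limma adjusted p = 5.89e-06, difference -36.8 ± 4.21, adjusted p = 2.43e-04). That difference averages both lines. In MDA-MB-231 the Fn14 KO lists were that low without TWEAK too, so in this line it cannot show whether the loss needs Fn14.

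ETV4, an ETS factor that acts under FGF and ERK signalling, lost 33.8 points, with a change of -33.8 ± 4.84 (limma adjusted p = 4.48e-04), in a region of 10.7 kb on chr17:43524367-43535055. It fell from 43.7 and 65.2% to 27.9 and 35.0% in MDA-MB-231 control lists and from 69.7 and 76.7% to 26.9 and 30.3% in Hs578T, and Fn14 KO lists held 36.2 to 49.0% in the former line and 73.8 to 84.2% in the latter. CCND1, the cyclin that carries growth signals into the cell cycle, fell from 66.3 and 80.7% to 46.0 and 46.0% and from 93.6 and 87.3% to 54.2 and 60.1%. In its 20.3 kb on chr11:69635839-69656163, the MDA-MB-231 Fn14 KO lists held 53.0 to 68.7% and those of Hs578T 90.3 to 93.5%. In both genes the treated and untreated control lists of each line did not overlap. The change at CCND1 was -30.4 ± 3.39 points (adjusted p = 6.83e-05), and the difference from Fn14 KO was called at both (ETV4 -36.1 ± 6.84, adjusted p = 0.00645, CCND1 -24.9 ± 4.80, adjusted p = 0.00703).

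PLAU, the urokinase that activates plasminogen, shrank by 23.4 points (-23.4 ± 4.10, limma adjusted p = 0.00180, difference from Fn14 KO -31.1 ± 5.80, adjusted p = 0.00580). PLAU kept neither call when all lists were trimmed to the length of the shortest. Its 14.1 kb on chr10:73904552-73918690 went from 74.9 and 87.8% to 64.5 and 62.6% in MDA-MB-231 control lists and from 84.9 and 85.6% to 48.2 and 64.3% in Hs578T. As at SPRY1, Fn14 KO lists stood low in MDA-MB-231, at 45.6 to 51.2% and below every control list of that line, and high in Hs578T, at 76.8 to 98.6%. CD9, a tetraspanin of the cell surface, had 56.3 and 53.9% against 39.2 and 39.8% in MDA-MB-231 and 74.0 and 71.3% against 47.3 and 47.8% in Hs578T control lists, a change of -20.3 ± 3.01 points (adjusted p = 5.36e-04). Its MDA-MB-231 Fn14 KO lists, at 39.0 to 40.5%, were also at the level of the TWEAK-treated control lists. At PLAU and CD9 the Fn14 KO lists of MDA-MB-231 were that low without TWEAK too. In this line a difference from Fn14 KO cannot show whether the loss needs Fn14.

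A pair of the widest regions also shrank. At ACTN4 the covered percent went from 88.9 and 98.9 to 71.6 and 67.8 in MDA-MB-231 and from 97.7 and 96.9 to 71.9 and 83.4 in Hs578T control lists, and at AOPEP from 59.4 and 80.2 to 43.0 and 44.8 and from 72.9 and 84.7 to 45.2 and 52.3. These are changes of -21.9 ± 4.06 points (limma adjusted p = 0.00255) and -28.0 ± 5.49 points (adjusted p = 0.00361), with differences from Fn14 KO of -22.0 ± 5.74 (adjusted p = 0.0329) and -29.5 ± 7.77 (adjusted p = 0.0347). The ACTN4 region spanned 90221 bp when built from the untreated control lists and broke into stretches of at most 25004 bp in the TWEAK-treated ones. Of the other 8 widest regions only ANXA2 was called, 11.9 ± 3.78 points wider (adjusted p = 0.0430), a call kept in 4 of 16 refits without a list and at an adjusted p of 0.165 without MDA-MB-231 control TWEAK replicate 2.

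Among the 10 largest losses stood 3 on the short arm of chromosome 8. PRAG1, a pseudokinase of the cytoskeleton, had 45.5 kb fall from 54.0 and 77.3% to 29.3 and 30.1% in MDA-MB-231 and from 88.2 and 90.4% to 29.1 and 47.3% in Hs578T control lists (-43.5 ± 6.23 points, limma adjusted p = 4.49e-04). A region in DPYSL2, a regulator of microtubules, fell from 29.5 and 30.9% to 0 and 0% in MDA-MB-231 and from 65.6 and 84.5% to 7.33 and 26.3% in Hs578T (-44.2 ± 6.03, adjusted p = 3.16e-04), and PSD3, an exchange factor of ARF6, lost 40.4 points (-40.4 ± 6.71, adjusted p = 0.00125). The control groups of each line did not overlap at these genes. The difference from Fn14 KO was called in all 3, at adjusted p values of 0.0215, 0.00587 and 0.0188. Those of PRAG1 and PSD3 were kept in 11 and 14 of 16 refits without a list, with adjusted p up to 0.0568 (without Hs578T Fn14 KO untreated replicate 1) and 0.0531 (without MDA-MB-231 control TWEAK replicate 2).

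Further losses lay in ABCC12, a transporter of the ABC family (-38.0 ± 4.98 points, limma adjusted p = 2.34e-04), in a stretch 64563 bp from the start of DLG1 (-34.7 ± 4.32, adjusted p = 1.62e-04) and at MLPH, a linker of vesicles to myosin (-33.8 ± 5.24, adjusted p = 7.91e-04). In all of them the treated and untreated control lists of each line did not overlap, and the difference from Fn14 KO was called (adjusted p of 0.0149, 0.00472 and 0.0258). GAS6, a ligand of the receptor kinase AXL, differed from these. It lost 39.2 points in control cells (-39.2 ± 9.64, adjusted p = 0.0128). In Fn14 KO cells its cover was 16.4 points lower with TWEAK, which was not called. The difference between genotypes was not called either (-22.7 ± 13.6, adjusted p = 0.359), and the control call was lost without MDA-MB-231 control TWEAK replicate 2 or without Hs578T control TWEAK replicate 1 (adjusted p up to 0.0570).

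**Figure D4:**
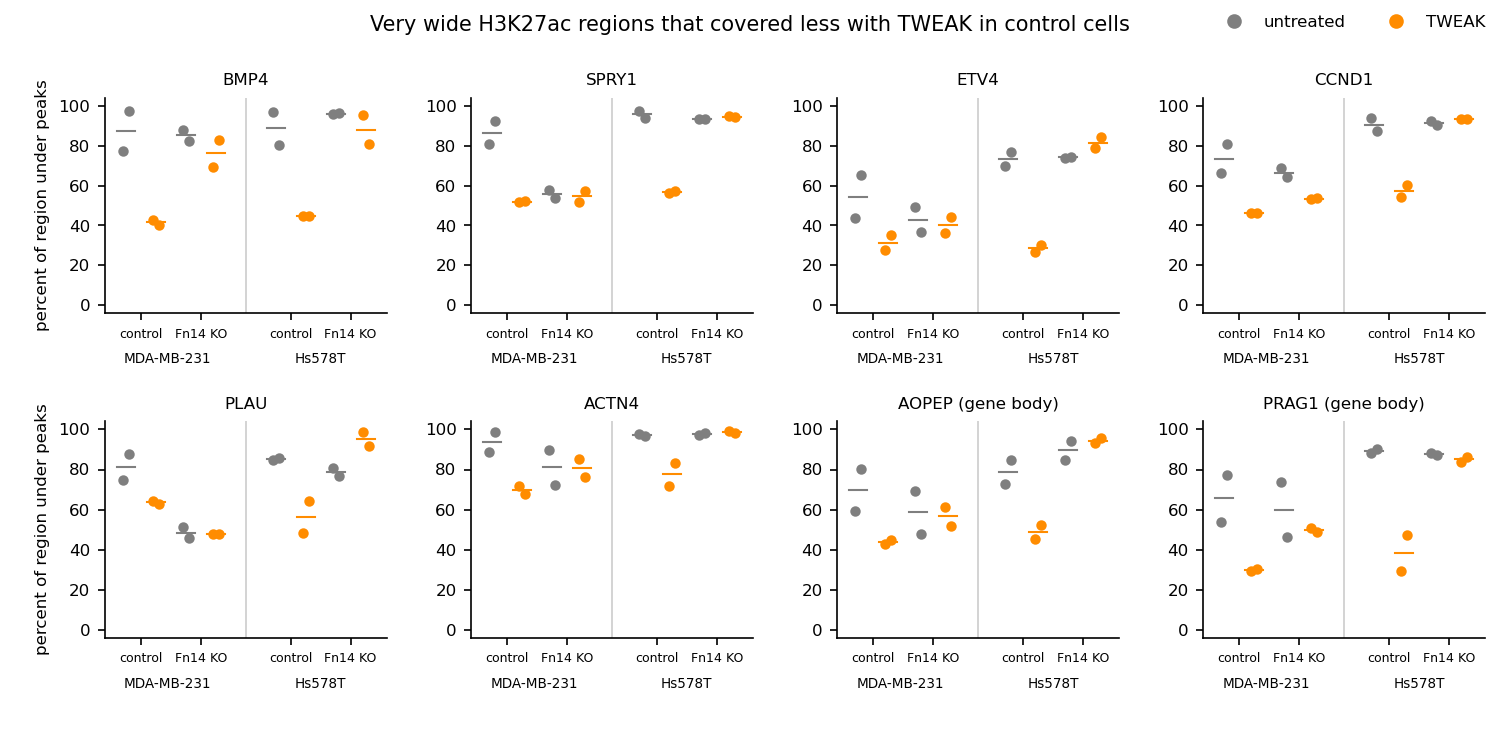
Covered percent in each list for 8 wide regions that narrowed with TWEAK in control cells (BMP4, SPRY1, ETV4, CCND1, PLAU, ACTN4, AOPEP and PRAG1), drawn with the percent of the region under peaks on the y axis and line, genotype and treatment on the x axis. Points are single lists and horizontal lines means of 2 lists. At SPRY1 the MDA-MB-231 Fn14 KO lists sit at 51.9 to 57.9, near the TWEAK-treated control lists, and the Hs578T Fn14 KO lists at 93.2 to 94.7, near the untreated ones.

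In the other gene lists fewer regions were called or calls went both ways. Of 21 genes of the AP-1, MAF and JNK pathway, 4 lay in wide regions (FOSL1, FOSL2, JUND and DUSP1) and none was called, with changes from -8.70 to 4.42 points. Among 14 genes of the YAP-TEAD pathway, whose factors drive growth and matrix genes, 6 did (WWTR1, CCN1, ANKRD1, AXL, AMOTL2 and AJUBA) and none was called, from -10.5 to 8.45 points. SMAD3, a signal carrier of TGF-beta, was the 1 gene of 17 of its pathway and bore 4 wide regions, none called (-10.5 to 10.4 points).

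Matrix and mesenchymal genes showed calls in both directions. Of 35 listed, 6 lay in wide regions, 1 of which widened and 3 of which narrowed. LAMB1, a laminin chain, narrowed by 12.0 points (-12.0 ± 2.72, adjusted p = 0.00785), THBS1, a matrix glycoprotein, by 30.2 points (-30.2 ± 8.48, adjusted p = 0.0246, kept in 11 of 16 such refits) and the S100A6 and S100A4 cluster by 12.4 points (-12.4 ± 4.04, adjusted p = 0.0483, kept in 4 of 16). VIM and LOXL2 changed by 0.664 and -0.271 points and were not called. Without MDA-MB-231 control untreated replicate 2 the adjusted p was 0.0965 for THBS1 and 0.161 for S100A6. At LAMB1, THBS1 and S100A6 the difference from Fn14 KO was not called.

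Of 20 genes of invasion and integrins, 7 lay in wide regions, with 1 wider (ITGA2, a collagen-binding integrin chain, 24.9 ± 6.06 points, limma adjusted p = 0.0119) and 3 narrower (PLAU, CD9 and S100A4). The ITGA2 call was lost without MDA-MB-231 control TWEAK replicate 2 (adjusted p = 0.0578) or Hs578T control TWEAK replicate 2. At ITGA2 the difference from Fn14 KO was not called. The list of 27 growth factor receptors and oncogenes also held NAMPT, a metabolic enzyme. Of its genes, 17 lay in 23 wide regions, of which 4 widened (NAMPT, both HMGA2 gene body regions and ETS1) and 1 narrowed (CCND1), with a median of 6.32 points beside -3.19 over all wide regions. EGFR and MET, receptor kinases, changed by 14.0 points in one EGFR region and 6.32 in another and by 12.7 at MET, at adjusted p of 0.175, 0.340 and 0.0913. Of 23 cytokine genes, 4 lay in wide regions, with VEGFC wider and the region over CSF3 and MED24 narrower by 15.2 points (-15.2 ± 3.90, adjusted p = 0.0158), a call that had an adjusted p of 0.573 without MDA-MB-231 control untreated replicate 2. The 38 HOX genes lay in none.

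Of 15 luminal and epithelial genes, XBP1 and KRT19 (13.3%) had their start in a wide region, and of 11 basal epithelial genes LAMB3 (9.09%), where 2.57% of all protein-coding genes did. None of these regions was called with TWEAK (5.78, -1.97 and 18.7 points, with an adjusted p of 0.0572 for LAMB3). The regions at VIM, AXL and the S100A6 and S100A4 cluster held a peak in all 16 lists, though the last was at most 7083 bp wide in the TWEAK-treated control lists.

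The base pairs that changed were located within the regions by comparing lists base by base. Of the 12.2 Mb, 6857 kb (56.2%) were under peaks in all 8 control lists. In MDA-MB-231 control cells 308 kb were covered in both lists with TWEAK and in none without, and 417 kb the other way round, and in Hs578T 242 and 520 kb. Between lines 93.8 kb in 118 regions were gained in both and 116 kb in 228 regions lost in both, while 2.99 kb went opposite ways. TRAF1 alone held 11015 bp of the shared gain in its 3′ region and 10065 bp at its start, and ACTN4 6952 bp of the shared loss.

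Sequence gained or lost in one line moved alike in the other, whose lists were not used to pick it within the regions, though they took part in the choice of the regions. What was gained in MDA-MB-231 was covered to 39.2 ± 4.62% in untreated and 79.9 ± 5.22% in TWEAK-treated Hs578T control lists (SD, n = 2 each), and to 44.3 ± 1.68% and 44.0 ± 1.54% in Hs578T Fn14 KO lists. What was lost in MDA-MB-231 fell from 82.1 ± 0.714% to 38.7 ± 10.8% in Hs578T control lists and stood at 88.4 ± 2.47% and 87.6 ± 0.888% in Fn14 KO lists. In the other direction, sequence gained in Hs578T went from 17.7 ± 11.7% to 68.9 ± 7.02% in MDA-MB-231 control lists, and sequence lost in Hs578T from 52.6 ± 17.7% to 16.8 ± 0.472%. MDA-MB-231 Fn14 KO lists covered 16.6 ± 11.2% of that gain untreated and 14.7 ± 1.43% with TWEAK. Of that loss they covered 33.2 ± 21.7% and 26.0 ± 2.41%. In each case the pairs of control lists did not overlap, and with 2 lists against 2 no test was made.

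Fn14 KO lists differed between gain and loss. Of the sequence gained in both lines, the MDA-MB-231 Fn14 KO lists covered 10.9 ± 9.30% untreated and 11.5 ± 2.52% with TWEAK, and those of Hs578T 17.9 ± 0.512% and 15.9 ± 1.61% (SD, n = 2). Sequence lost in both lines was covered to 92.9 ± 2.12% and 93.7 ± 2.07% in Hs578T Fn14 KO lists, but to only 45.2 ± 23.0% and 37.4 ± 5.19% in MDA-MB-231, where the untreated pair held 61.4 and 28.9%. The MDA-MB-231 Fn14 KO lists also had the lower fold enrichment given above, and its part in this was not tested.

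**Figure D5:**
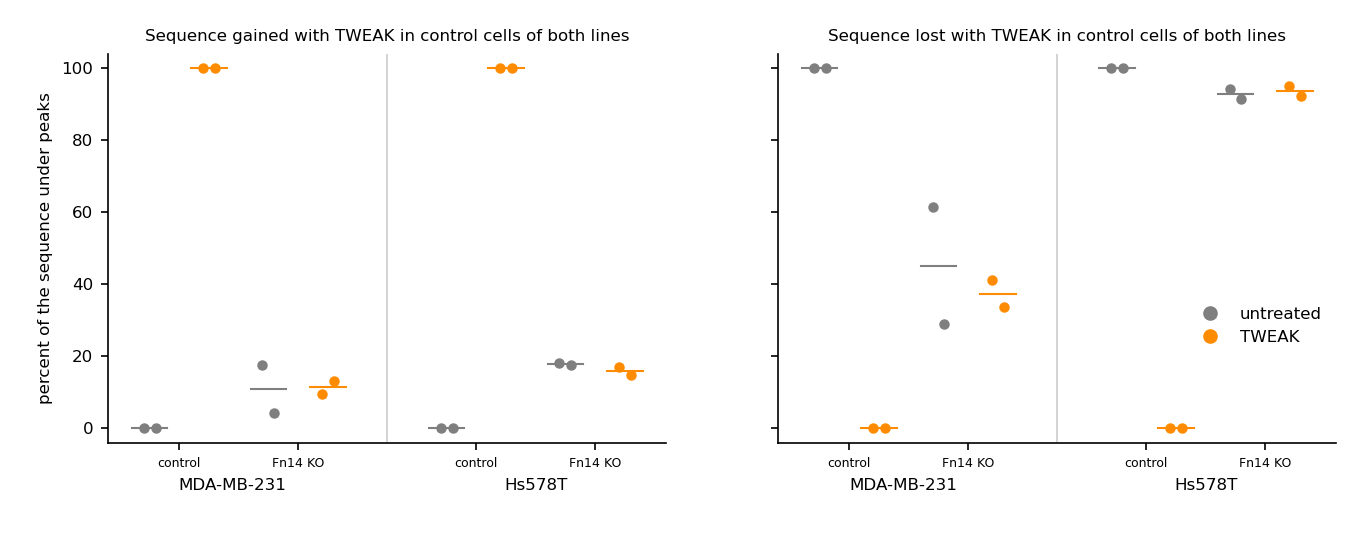
Percent of the 93.8 kb gained in control cells of both lines and of the 116 kb lost in both that lay under peaks in each of the 16 lists. The y axis is the percent of those base pairs, points are single lists, and the control lists are at 0 or 100 by the way the sequence was chosen, so that only the Fn14 KO lists carry information, with 4.33 to 18.2 for the gain and 28.9 to 95.2 for the loss.

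Changes happened inside the regions about as often as at their edges. Of the stretches gained, 51.0% in MDA-MB-231 and 48.2% in Hs578T lay between peaks that were already there in the untreated lists, with 58.6% and 63.1% of the gained base pairs. Of those lost, 53.7% and 54.3% lay between peaks that remained, with 67.8% and 66.2% of the base pairs. These shares give only the position of a stretch with peaks on both sides. Whether a gain closed the gap between neighbouring peaks, or a loss split a peak, was not tested.

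Width and height did not move as one. The highest fold enrichment within a region was compared on the log2 scale, with lists set to a common median, in the 760 wide regions and 28337 regions in all that had a peak in every list. By limma, 220 wide regions (28.9%) were higher and 130 (17.1%) lower with TWEAK in control cells, against 22.6% and 24.2% of all such regions, and 0 in either direction in Fn14 KO cells (0% and 0% of all). Their difference was called upward in 169 and downward in 67 (16.6% and 16.3% of all). Of the 61 regions that widened, 34 of the 58 with a height also rose and 5 fell, and of the 121 that narrowed, 53 of 119 fell and 12 rose. BCL3 and NAMPT were among those that widened as they fell in height, and LAMB1, higher by 0.33 on the log2 scale (adjusted p = 0.00117), among those that narrowed as they rose.

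Base composition is given as a description. The wide regions had a GC content of 47.4%, those that widened 44.0% and those that narrowed 49.5%, and the sequence gained and lost in both lines 43.6% and 49.0%. In windows of 300 bp, both strands searched, the AP-1 site TGACTCA occurred in 6.93% of windows of wide regions, 7.69% of those of regions that widened and 6.78% of those of regions that narrowed, beside 9.77% of the windows of all consensus regions. The NF-kB consensus occurred in 7.31%, 5.96% and 8.31%, beside 7.27%. Within the gained sequence these shares were 4.56% and 4.98%, within the lost sequence 2.17% and 6.52%, and within the sequence under peaks in all control lists 9.12% and 8.16%. The sites did not overlap each other by their letters, gained and lost stretches were short, and no test was made.

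Between the lines, most wide regions were covered further in Hs578T. Over both genotypes and treatments, 421 wide regions (54.7%) were wider in Hs578T and 12 (1.56%) in MDA-MB-231 by limma, against 28.4% and 4.71% of all consensus regions. The median difference was 10.4 points, and 9.20 over all regions, so that much of it was shared with regions of any width. After lists were levelled to a common mean, 186 (24.2%) were wider in Hs578T and 107 (13.9%) in MDA-MB-231, beside 13.9% and 11.0% of all regions. The choice of members leaned the same way, as 688 of the 770 (89.4%) reached 10 kb from the Hs578T lists alone and 473 (61.4%) from the MDA-MB-231 lists alone. In height, 234 were higher in Hs578T and 209 in MDA-MB-231, against 27.4% and 31.5% of all.

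The largest differences toward Hs578T lay at NFE2L3, a CNC transcription factor, INSIG1, which holds back cholesterol synthesis, LFNG, a glycosyltransferase of the Notch receptors, TNS4, a focal adhesion protein, and FMN1, an actin nucleator. At NFE2L3 the 8 MDA-MB-231 lists covered 0 to 38.2% and the 8 Hs578T lists 49.4 to 88.3%, without overlap (51.4 ± 4.76 points, limma adjusted p = 2.40e-05). Its cover was highest in Hs578T lists, so the choice of members may favour this separation and its test. INSIG1 differed by 46.0 ± 4.51 points, with 25.6 to 66.1% and 65.3 to 98.3%, and LFNG by 42.1 ± 4.06 points, with 26.4 to 52.4% and 53.1 to 98.5%. At TNS4 Hs578T differed by genotype as well. Its 4 Fn14 KO lists held 83.0 to 98.0% and its 4 control lists 28.6 to 57.3%, against 13.6 to 49.9% in MDA-MB-231, and the line difference of 41.7 ± 3.33 points (adjusted p = 8.37e-06) averages over both.

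In favour of MDA-MB-231 the clearest region on an assembled chromosome lay between genes on chromosome 8, 485050 bp from HAS2, which makes hyaluronan. MDA-MB-231 lists covered 72.4 to 95.5% of its 11.3 kb and Hs578T lists 20.9 to 49.4% (-54.0 ± 3.81 points, limma adjusted p = 3.54e-06). Here too the choice of members may favour the separation and the test. The other 4 leading regions lay on unplaced or unlocalised contigs and had peaks in only 8 or 9 of the 16 lists. Of these, 2 shared 83.4% and 86.2% of their 50-base words with other wide regions, so that reads of those 2 may have been split between copies, which was not tested.

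Against the 54.7% of all wide regions that were covered further in Hs578T, the gene lists varied. Of the 7 wide regions of the invasion and integrin list, 6 were called (PLAU, ITGA3, ITGA6, ITGB1, CD9 and the S100A4 cluster), by 9.47 to 26.8 points. All 4 SMAD3 regions were, by 12.2 to 19.6 points, and 12 of 23, near the share of all, of the growth factor receptor and oncogene list, among them EGFR, EREG and HMGA2 (28.8 ± 5.32 points over its start, limma adjusted p = 0.00202). None of the 11 NF-kB pathway regions but that at IKBKB was called (16.2 points, adjusted p = 5.52e-04).

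The response to TWEAK itself was not found to differ between the lines in any wide region. The TWEAK effect in Hs578T control cells minus that in MDA-MB-231 control cells was called in 0 wide regions in either direction by limma, against 0.386% and 0.350% of all consensus regions, with 29 wide regions at an unadjusted p under 0.05 and a smallest adjusted p of 0.0678. Of the 61 widened regions 60, and of the 121 narrowed regions all 121, had changes of 1 sign in both lines, and the medians were 26.1 points in MDA-MB-231 and 21.6 in Hs578T for the former and -19.7 and -21.5 for the latter. As the calls were made on the mean of both lines, a shared sign follows in part from the choice.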

How the data were processed

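H3K27ac ChIP-seq peak lists of 16 samples were analysed, 2 for each of the 8 groups of line, genotype and treatment, with groups taken from the sample titles. Per the labels and the study's methods, the authors used Trimmomatic for trimming, Bowtie2 for alignment to hg38 and MACS2, with subtraction of the input, to call peaks in each sample, after which bedtools took out blacklisted regions. That the calls were broad was read off the columns. Tool versions were not given in the sources used here. For each peak the authors deposited its position, a score, a fold enrichment ratio over the local background, and the −log10 of its p-value and q-value. Depth is unknown, so precision was judged from the spread of lists, and with 2 lists a group it is low.

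Peaks were merged and measured with Python 3.11.15 (numpy 2.4.6, pandas 2.3.3). The percent of each of the 55219 consensus regions under peaks was fitted with limma 3.58.1 (R 4.3.3, robust, with a trend on log10 width) over all 16 lists in 1 model, and p-values were adjusted over all regions. DiffBind, the test of the study, needs reads and was not run. Height was the log2 of the highest fold enrichment of a peak in the region. The fit of covered percent was tested on simulated data for the TWEAK effect in control cells only. The height fit was not tested in that way. Genes were protein-coding genes of GENCODE 44, and a region was named by the starts it holds, else by the gene body it lies in, else by the nearest start. Sequence was read from hg38. The members and gene lists were chosen with earlier results of these data known. Named regions were the 10 widest, up to 10 called ones with the largest change in each direction and with separate lists for the TWEAK effect and its difference between genotypes, 5 in each direction between lines, and those at listed genes. The alternatives were a stricter q-value, lists of equal length, levelled lists, a log2 scale, a replicate block, only regions of at least 2 kb, joined peaks, widths of 8 and 15 kb, regions from the other line, and each list left out. Regions from the other genotype were added after seeing the data. Fits with regions from the other line or genotype used only the 8 lists of the line or genotype tested. The values of 1 listed gene are not reported here.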

Additional observations from a re-analysis of the deposited data

Results flagged for a closer look

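In 83 wide regions (10.8%, beside 9.58% of all consensus regions) the effect of TWEAK differed between control and Fn14 KO cells by the interaction term of the limma fit, taking both lines together. Of these, 34 (4.42%, beside 5.93% of all) had a larger widening and 49 (6.36%, beside 3.65%) a larger narrowing in control cells. The regions at TRAF1, PDE4DIP, BIRC3 and BIRC2 and that nearest to SPCS3 reached 10 kb only through the TWEAK-treated control lists. That choice favours their tests. The difference, in percentage points of the region covered, was 84.7 at the 3′ part and 56.4 at the start of TRAF1, 58.6 at PDE4DIP, 56.6 in the HMGA2 gene body, 55.2 in the region nearest to SPCS3, 51.6 at BIRC3, 50.5 at NFKBIZ, 47.7 at HIPK2, 44.4 at BIRC2 and 42.3 in the region of 10.9 kb near NBPF8. On the other side it was -45.6 in DPYSL2, -41.1 at PSD3, -40.2 in DYNC1H1, -37.1 at PRAG1, -36.9 at LMCD1, -36.8 at SPRY1, -36.2 at BMP4, -36.1 at ETV4, -35.6 at NT5C and -33.9 in the region nearest to DLG1.

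The regions at DYNC1H1, LMCD1 and NT5C have not been described above. DYNC1H1, the heavy chain of cytoplasmic dynein, held 26.8 kb that fell from 32.9 and 39.3% to 14.8 and 11.8% in MDA-MB-231 and from 72.7 and 51.6% to 19.0 and 29.2% in Hs578T control lists, with 21.6 to 31.1% and 70.4 to 95.0% in the Fn14 KO lists of these lines. LMCD1, a regulator of GATA6, fell by 33.3 points in control cells (limma adjusted p = 0.00274) and NT5C, a nucleotidase, by 26.3 points (adjusted p = 0.00743). Of all 27 named regions with this difference called, 14 kept the call in each of the 16 refits without a list and 15 under all 7 other settings. LMCD1 kept it in 11 and NT5C in 13, with adjusted p up to 0.0609 without MDA-MB-231 control TWEAK replicate 2 and up to 0.0564 without Hs578T control untreated replicate 2. The NT5C difference was called under only 3 of those 7 settings, and lost with −log10 q of at least 2, with lists of equal length, on the log2 scale and with peaks joined.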

How the results depend on the processing

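Of 278 recomputed counts and shares, 256 stayed within 1.5 times the reported value. The number of wide regions went from 770 to 1431 at a limit of 8 kb and 257 at 15 kb. The share wider with TWEAK in control cells (7.92%) was 14.8% with levelled lists and 2.29% with regions from the Fn14 KO lists, an alternative chosen after seeing the data. With regions built from the other line, the share called in MDA-MB-231 control cells was 4.19%, against 11.6% in the reported fit. Fits with regions from the other line or genotype held only the 8 lists of the line or genotype tested. The part of the fewer lists and that of the choice of regions cannot be told apart there. The line difference in the TWEAK effect, 0 wide regions in the reported fit, was called in 0.267% of them with −log10 q of at least 2, 0.135% with lists of equal length and 0.260% on the log2 scale.

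Leaving out 1 list gave 740 to 769 wide regions, 4.99% to 10.0% wider and 10.7% to 20.6% narrower in control cells, 5.91% to 12.8% for control minus Fn14 KO, 2.76% to 13.5% called in the control cells of MDA-MB-231, 3.84% to 14.3% in those of Hs578T, and 47.7% to 65.5% between lines. It gave 0% to 0% for each comparison within Fn14 KO cells and for the line difference in the TWEAK effect. The lowest shares came without MDA-MB-231 control TWEAK replicate 2 for wider, control minus Fn14 KO and MDA-MB-231, and without Hs578T control TWEAK replicate 1 for narrower and Hs578T. Shares under 1/1.5 of the reported value were also found for wider without Hs578T control TWEAK replicate 2 (5.05%), for MDA-MB-231 without its control TWEAK replicate 1 (4.83%), for Hs578T without its control untreated replicate 2 (6.23%) and control TWEAK replicate 2 (7.45%), and for control minus Fn14 KO without Hs578T control TWEAK replicate 1 (6.35%), MDA-MB-231 Fn14 KO TWEAK replicate 1 (6.02%) or 2 (6.54%), Hs578T Fn14 KO TWEAK replicate 1 (6.28%) or untreated replicate 2 (6.81%), and Hs578T control untreated replicate 2 (7.16%). Of the 37 regions named for the TWEAK effect in control cells, 29 kept the call in all 16 such refits and 28 under all 7 other settings, and none reversed.

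With the replicate number as a block, 7.66% of wide regions were wider and 14.4% narrower in control cells, 9.22% differed between genotypes and 55.1% between lines, all within 1.5 times the reported shares. The labels share only a number, and the deviations of same-numbered lists correlated at 0.192, 0.0299, -0.0337 and 0.168 over the 770 regions in the 4 sets of line and genotype. Peak lists give no reads, so a stretch near the calling threshold can be in 1 list and missed in another at the same acetylation, and 2 lists a group leave small changes undetected.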

Other observations

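Further wide regions, chosen for mention after their values were seen, touched cytokine signalling and stress. CDK6, a kinase of the cell cycle, had 17.5 kb of its gene body widen from 53.9 and 52.9% to 80.5 and 86.2% in MDA-MB-231 and from 75.4 and 72.6% to 93.6 and 87.2% in Hs578T control lists (23.2 ± 3.10 points, limma adjusted p = 2.55e-04). IRAK2, a kinase of interleukin and Toll-like receptor signalling, widened by 24.2 ± 3.53 points (adjusted p = 5.22e-04), NFE2L1, a factor of the proteasome and oxidative stress response, by 36.8 ± 5.51 points (adjusted p = 6.15e-04), and MAP4K4, a kinase upstream of JNK, by 31.9 ± 5.83 points (adjusted p = 0.00230). The difference from Fn14 KO cells was called at all of these (adjusted p of 0.00807, 0.0344, 0.00836 and 0.0228).

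At the start sites of SCNN1A, a sodium channel subunit, and LTBR, another receptor of the TNF family, 10.9 kb narrowed from 91.7 and 94.3% to 74.2 and 65.0% in MDA-MB-231 and from 96.6 and 94.2% to 64.2 and 72.6% in Hs578T control lists (-25.2 ± 3.82 points, limma adjusted p = 6.55e-04, difference from Fn14 KO called at an adjusted p of 0.00724). IGF1R, a growth factor receptor, narrowed by 17.5 points (-17.5 ± 3.37, adjusted p = 0.00306) and DUSP4, a phosphatase of MAP kinases, by 16.6 points (-16.6 ± 3.54, adjusted p = 0.00589). In MDA-MB-231 the Fn14 KO lists of the SCNN1A and LTBR region held 53.9 to 64.9%, below every control list of that line, and in Hs578T 86.0 to 94.0%. The difference from Fn14 KO in MDA-MB-231 thus cannot show whether the loss at this region needs Fn14.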
